A study of Mus musculus with 28 samples.

Results

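Aqp2, Aqp3, Aqp4 and Avpr2 encode the water channels of the collecting duct principal cell and the vasopressin receptor that regulates them. They were taken as the 4 rows, of 56748 genes in the count table, whose Ensembl identifiers belong to these mouse symbols (ENSMUSG00000023013 for Aqp2, ENSMUSG00000028435 for Aqp3, ENSMUSG00000024411 for Aqp4 and ENSMUSG00000031390 for Avpr2). The rule for this choice used gene symbols and no measured value, though earlier results of these data were known when it was made. Their levels and their variation together are described over 28 libraries of polyadenylated kidney RNA. The libraries form 6 groups by sex and by the form of aquaporin-3 the mice carry, which the labels give as wild type (WT), a mimetic of the acetylated protein (Q) or a mimetic of the deacetylated protein (R). Each group has 5 libraries, apart from female R with 3. All mice were untreated, had free access to pellets and tap water, and lived in a 12 h light and 12 h dark cycle. Kidneys were collected between 2 and 5 h of zeitgeber time, decapsulated and frozen. Strain, age, zygosity and the way the alleles were made are not given in the sources used here. All groups thus share the same housing and collection window, and differ in sex and in Aqp3 genotype alone as far as the labels say. Libraries are numbered, but the labels do not state that each came from a separate animal, so p-values measure the spread between libraries, which may in part be technical.

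Principal cells of the collecting duct set the final water content of urine. Vasopressin binds Avpr2, a Gs-coupled receptor on their basolateral membrane. The resulting cyclic AMP and protein kinase A signal moves vesicles holding aquaporin-2 to the apical membrane and, over a longer time, raises Aqp2 transcription. Water that enters through aquaporin-2 leaves through aquaporin-3 and aquaporin-4 on the basolateral side. Aquaporin-3 also passes glycerol and is itself raised by vasopressin, while aquaporin-4 passes water only and is most prominent toward the inner medulla. In mice, aquaporin-4 has in addition been described in the straight part of the proximal tubule.

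Library totals ran from 14825417 to 21403804 counts. Male Q replicate 4 and female Q replicate 5 stood apart from the rest, with 7.74% and 3.94% of their counts in mitochondrially encoded genes, against 9.56 to 12.1% in the others. The library labelled female WT replicate 2 had Xist at 0.515 CPM, where CPM is the count relative to the TMM-scaled library total, where the other 12 female libraries had 214 to 435 CPM, although it lay among the females on the first principal component (43.4, with males all below 0). Fold changes, correlations between the channels and the comparison with principal cell genes were also computed without these libraries, and correlations with gene lists and the genes most like a channel without the first 2 of them. In whole-kidney RNA, fewer cells of a type and less RNA per cell cannot be told apart.

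The first question was how much RNA of each gene the kidney held. Divided by exonic length (RPKM, the CPM per kilobase of exon), Aqp2 averaged 281 ± 79.3 RPKM, Aqp3 63.3 ± 6.56 RPKM and Aqp4 7.75 ± 3.81 RPKM (SD, n = 28). Aqp2 exceeded Aqp3 in 28 of 28 libraries, by 2.67 to 7.72 times per length, and Aqp3 exceeded Aqp4 in 28 of 28, by 4.24 to 29.7 times. The ranges over libraries did not overlap, at 147 to 463 RPKM for Aqp2, 51.1 to 74.8 RPKM for Aqp3 and 1.81 to 15.2 RPKM for Aqp4. The margin of Aqp3 over Aqp4 was 7.25 to 29.7 times in males and 4.24 to 8.66 times in females. For Aqp4 the length matters, since its 9 annotated coding transcripts run from 453 to 5054 bases. With the longest of them its mean was 9.55 RPKM and with the shortest 106.6 RPKM, which would place it above Aqp3, and which transcript the kidneys held was not tested. Avpr2 had 62 counts in all libraries together and is not placed in this order, for the reason given next.

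Avpr2, the receptor, lies on the plus strand of chromosome X (chrX:73892102-73895502 in GRCm38, an older build than the GRCm39 of the counts). Arhgap4, which encodes a GTPase-activating protein, spans it on the opposite strand (chrX:73891442-73921870). In the GENCODE annotation of GRCm38, 2347 of the 2886 exonic bases of Avpr2 (81.3%) are also exon of Arhgap4. Of its 4 annotated transcripts, 3 lie entirely inside Arhgap4 exons and the other shares 80.7% of its bases. Aqp2, Aqp3 and Aqp4 share 0 exonic bases with any other gene. The header of the count table gives no strand option and no option for fragments in exons of more than 1 gene, which the counting tool by default leaves out.

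Avpr2 counts were close to none in every group. Male WT libraries held 4, 1, 2, 0 and 1 counts, male Q libraries 4, 2, 2, 0 and 2, and male R libraries 0, 6, 1, 0 and 1. Female WT libraries held 1, 1, 2, 0 and 1 counts, female Q libraries 7, 1, 3, 4 and 3, and female R libraries 4, 5 and 4. In all, 5 libraries were at 0, which allows up to 0.173 to 0.196 CPM by a floor of 3 counts per library, and 20 libraries had 3 counts or fewer. The groups overlapped, apart from female R, whose 3 libraries lay above the 5 of female WT. How many genes part these groups in this way was not computed. Avpr2 did not pass the filter on low counts, so it has no test and no fold change here. Arhgap4 held 3447 counts over all libraries. Given the overlap, these counts cannot be read as the level of Avpr2 RNA, and no difference in Avpr2 between groups was detectable.

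Aqp2, which encodes the apical water channel under vasopressin control, lies on chromosome 15 (chr15:99579055-99584547, plus strand, GRCm38). Its level varied widely between libraries of the same group, and no group stood apart. Male WT libraries had 282, 517, 408, 404 and 367 CPM, male Q libraries 422, 323, 330.0, 587 and 249 CPM, and male R libraries 354, 513, 396, 311 and 386 CPM. Female WT libraries had 323, 477, 357, 597 and 658 CPM, female Q libraries 312, 525, 209, 347 and 324 CPM, and female R libraries 492, 247 and 436 CPM. The highest level was in a female WT library and the lowest in a female Q library, and all 6 groups overlapped. Within groups the SD of log2 CPM was 0.42, larger than that of 96.5% of the 10137 genes that averaged 8 CPM or more, whose median was 0.20. Aqp3 and Aqp4, measured in the same way, had SDs of 0.16 and 0.46, at the 28.3th and 97.7th percentile. Of the 3 channels, Aqp3 was thus the steady one, and Aqp2 and Aqp4 varied more than most of the 10137 genes. Those genes were not matched to the level of each channel.

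No genotype comparison of Aqp2 passed the test (edgeR's quasi-likelihood test, Benjamini-Hochberg adjusted p under 0.05 over 17573 tested genes, of which 0% passed in each genotype comparison). Group means were 396 ± 84.5 CPM in male WT, 382 ± 130 in male Q, 392 ± 75.1 in male R, 482 ± 146 in female WT, 344 ± 115 in female Q and 392 ± 129 in female R (SD, n = 5, and 3 in female R). The widest gap was in females, where Q lay below WT by a log2 fold change of -0.49 (SE 0.245, 95% interval -0.99 to 0.01, unadjusted p = 0.0558, edgeR adjusted p = 1). In males the same comparison gave -0.05 (interval -0.55 to 0.45). The difference between these values, the interaction of sex and Q, was -0.44 (interval -1.15 to 0.27, edgeR adjusted p = 0.999). Between the sexes, averaged over genotypes, Aqp2 differed by 0.04 (interval -0.26 to 0.35). This interval between the sexes spans a fold of 0.834 to 1.27. The interval of female Q against WT reaches down to a fold of 0.502, so a sizeable drop in that comparison was not excluded.

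The 250 bases before the start of Aqp2 and of Aqp3 are shown because both genes are known targets of vasopressin. Their levels also rose and fell together in the female libraries (Pearson's r = 0.74). Over all 28 libraries r was 0.23 and in males -0.36, neither past the threshold by permutation. Shared control of Aqp2 and Aqp3 was not tested. The bases shown are RefSeq sequence of GRCm38.p6, written 5′ to 3′ on the strand of the gene. They lie at chr15:99578806-99579055 (plus strand) for Aqp2 and chr4:41098184-41098433 (minus strand) for Aqp3. Capitals mark matches, on either strand, to 3 motifs. The half-site of the cyclic AMP response element is TGACG, which is also the first stretch of the full element TGACGTCA. The E-box searched for is CACGTG. The box named for its letters, to which the basal transcription machinery binds, was searched for as TATAA.
Aqp2: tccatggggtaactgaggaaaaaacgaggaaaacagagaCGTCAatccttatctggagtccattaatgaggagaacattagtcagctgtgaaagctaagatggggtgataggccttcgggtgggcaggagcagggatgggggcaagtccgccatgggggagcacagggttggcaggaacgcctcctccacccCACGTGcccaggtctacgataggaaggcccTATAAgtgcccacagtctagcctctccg
Aqp3: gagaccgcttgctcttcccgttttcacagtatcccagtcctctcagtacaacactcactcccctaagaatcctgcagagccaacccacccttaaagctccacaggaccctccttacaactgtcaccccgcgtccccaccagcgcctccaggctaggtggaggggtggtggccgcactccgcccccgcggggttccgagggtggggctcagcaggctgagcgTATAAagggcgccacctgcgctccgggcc
In Aqp2 the TGACG match is on the minus strand, 211 to 207 bases before the start, the CACGTG match is 58 to 53 bases before it and TATAA 28 to 24 bases before it. In Aqp3 the single match is TATAA, 29 to 25 bases before the start. Of the same window before all 32851 gene starts in the RefSeq table, 17.8% held TGACG, 6.02% CACGTG and 22.8% TATAA, and 1.55% held the full TGACGTCA, which neither of these windows holds. The searches also covered AGATAA, the core of GATA sites, found in Aqp2 on the minus strand (202 to 197 bases before the start, 9.99% of all windows), and AGGAAG, an Ets core, found in Aqp2 38 to 33 bases before the start (29.5%). A match of letters describes the sequence and is not a measured site. The table held a promoter for 3 of the 4 genes. That of Avpr2, not shown, held TATAA on the minus strand, 44 to 40 bases before the start, and no other motif searched for.

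Aqp3, the basolateral channel for water and glycerol and the gene that carries the Q and R alleles, lies on chromosome 4 (chr4:41092722-41098183, minus strand, GRCm38). Its level was close to the same in all libraries. Male WT libraries had 125, 93.5, 137, 132 and 117 CPM, male Q libraries 115, 110.4, 115, 98.0 and 117 CPM, and male R libraries 119.8, 118, 116, 99.1 and 114 CPM. Female WT libraries had 93.4, 132, 112, 123 and 128 CPM, female Q libraries 108, 122, 101, 124 and 101 CPM, and female R libraries 133, 118 and 121 CPM. The range over all 28 libraries was 93.4 to 137 CPM. The groups overlapped, apart from male Q, whose highest library (117.3 CPM) lay just under the lowest of female R (117.96 CPM). How many genes part these groups in this way was not computed. The lowest and the highest values were both in WT libraries.

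Since the alleles are in Aqp3 itself, its RNA was compared between genotypes first. In 9 genotype comparisons the fold change of Aqp3 did not pass the test, with log2 fold changes between -0.16 (female Q against R, 95% interval -0.40 to 0.08) and 0.08 (female R against WT, interval -0.16 to 0.31). Females and males differed by 0.03 on the log2 scale (interval -0.09 to 0.16), which spans a fold of 0.937 to 1.11. The amino acid change is not visible in gene counts, so Aqp3 levels do not check the genotype labels.

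Aqp4, the water-selective basolateral channel, lies on chromosome 18. It was the one channel to pass the test between the sexes, and was higher in females in each genotype. Male WT libraries had 21.3, 29.02, 21.01, 54.4 and 45.5 CPM, male Q libraries 28.6, 25.1, 22.1, 11.3 and 20.4 CPM, and male R libraries 17.4, 55.5, 32.5, 28.02 and 33.1 CPM. Female WT libraries had 73.0, 77.1, 78.9, 69.2 and 68.5 CPM, female Q libraries 65.7, 47.9, 77.0, 56.8 and 63.9 CPM, and female R libraries 58.8, 94.8 and 74.7 CPM. Within each genotype the female libraries all lay above the male ones. The share of all tested genes that part by sex in this way was not computed. Across genotypes 1 female library, at 47.9 CPM in Q, lay below the highest males, at 54.4 CPM in WT and 55.5 CPM in R.

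Averaged over genotypes, Aqp4 was 2.42-fold higher in females (95% interval 1.92 to 3.05, log2 fold change 1.27, SE 0.161, edgeR adjusted p = 4.28e-07). Of all tested genes 40.2% passed in this comparison, so a sex difference as such was common, and Aqp4 was 1 of 3 tested channels to pass. The log2 fold change was 1.10 in WT (SE 0.268, adjusted p = 0.00458), 1.53 in Q (SE 0.273, adjusted p = 0.000133) and 1.19 in R (SE 0.299, adjusted p = 0.00717), in edgeR comparisons in which 16.5%, 23.1% and 14.1% of genes passed. In each of these Aqp4 passed and Aqp2 and Aqp3 did not. Without female R replicate 2, the library with the highest Aqp4, the R value was 0.999 and missed the threshold (edgeR adjusted p = 0.0657). The sex difference did not itself differ between genotypes by test, with interactions of 0.43 for Q (95% interval -0.34 to 1.21, edgeR adjusted p = 0.999) and 0.08 for R (interval -0.75 to 0.92, adjusted p = 0.995). Without male Q replicate 4 and female Q replicate 5 the average was 1.21, and without the female library low in Xist 1.26, both past the threshold.

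**Figure D1:**
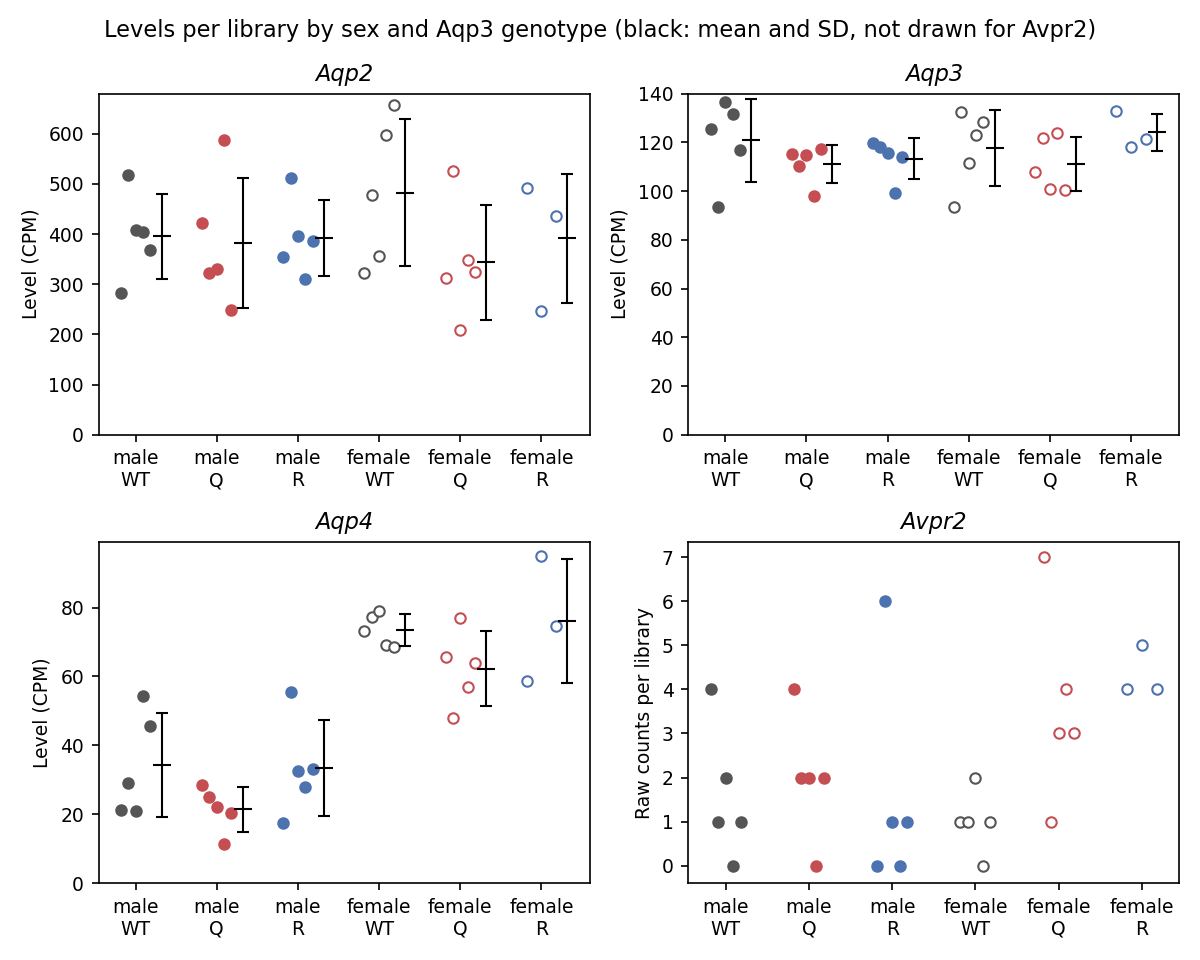
Levels of the 3 channels in CPM and raw counts of Avpr2 in each of the 28 libraries, by sex (filled, male and open, female) and Aqp3 genotype (colour). Black marks give the mean and SD of a group for the channels. In the Aqp4 panel the female points lie above the male ones within each genotype, with male libraries at 11.3 to 55.5 CPM and female libraries at 47.9 to 94.8 CPM. The share of all tested genes that part in this way was not computed.

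Male Aqp4 levels were also the more scattered, with a coefficient of variation of 43.7% over 15 male libraries against 16.9% over 13 female ones; this difference in spread was not tested. Within males, group means were 34.2 ± 15.03 CPM in WT, 21.5 ± 6.52 in Q and 33.3 ± 13.9 in R, and in females 73.3 ± 4.65, 62.3 ± 10.8 and 76.1 ± 18.1 CPM (SD, n = 5, and 3 in female R). All 5 male Q libraries lay below the upper pair of male WT libraries and within the range of the rest or below it.

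Q lay below WT in Aqp4 by -0.67 in males (95% interval -1.23 to -0.11, unadjusted p = 0.0212, edgeR adjusted p = 0.917) and by -0.24 in females (interval -0.78 to 0.30, edgeR adjusted p = 1). Over both sexes it was -0.45 against WT (unadjusted p = 0.0246, edgeR adjusted p = 0.920) and -0.46 against R (unadjusted p = 0.0310, edgeR adjusted p = 0.986). None of these passed over all genes. The male value was -0.51 (unadjusted p = 0.0868, edgeR) without male Q replicate 4, the library with the lowest Aqp4 and 7.74% mitochondrial counts, and -0.44 (unadjusted p = 0.110, edgeR) without male WT replicate 4. R and WT differed by -0.03 in males (interval -0.58 to 0.52) and 0.05 in females (interval -0.57 to 0.67).

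Taking the 3 tested channels through 9 genotype comparisons gave 27 fold changes. By edgeR 0 of them passed, and 4, all of Aqp4 in Q, had an unadjusted p under 0.05. The share of all genes that passed was 0% in each of these comparisons and in both interactions. DESeq2 and voom with library weights likewise called 0 channels, and called at most 3 genes in any genotype comparison. The intervals in the plot of fitted differences were narrowest for Aqp3, where Q against WT in males ran from -0.33 to 0.08, against -1.23 to -0.11 for Aqp4.

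**Figure D2:**
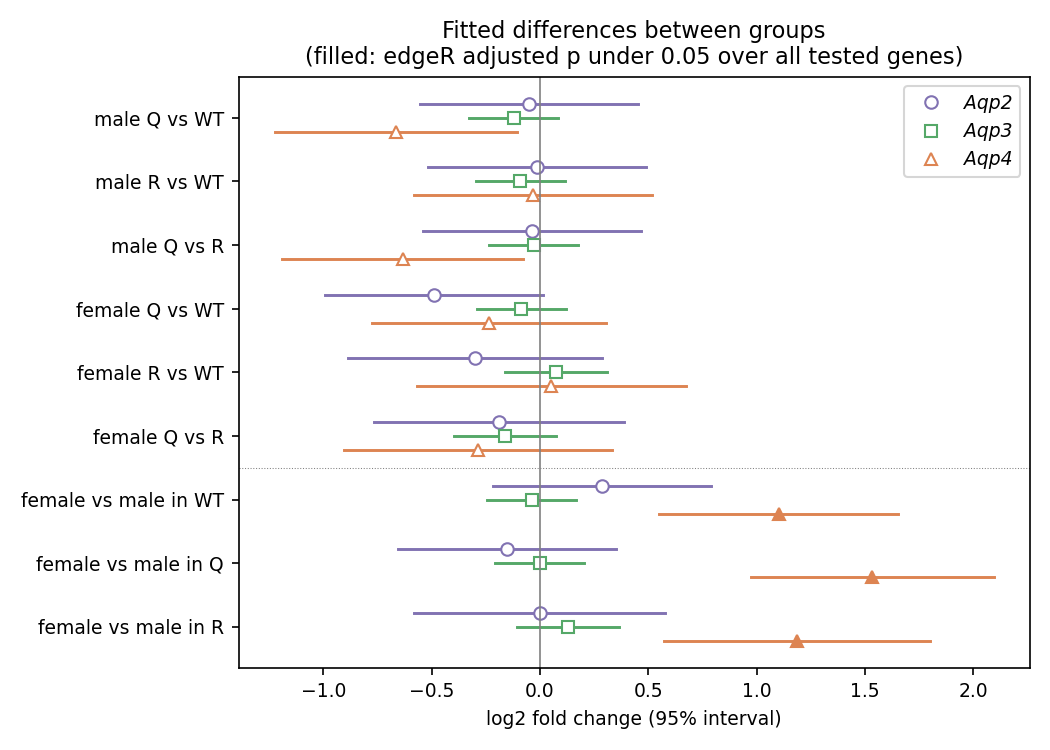
Log2 fold changes of Aqp2, Aqp3 and Aqp4 with 95% intervals in 6 genotype and 3 sex comparisons, with filled symbols past an edgeR adjusted p of 0.05. The filled symbols are Aqp4 between the sexes, at 1.10, 1.53 and 1.19, and the narrowest intervals are those of Aqp3.

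Whether the channels vary together from kidney to kidney was asked on log2 CPM after subtracting each group's mean. Over all 28 libraries none of the 3 pairs was related by permutation within groups. Pearson's r was 0.23 for Aqp2 with Aqp3 (p = 0.273, adjusted over 3 pairs 0.468; Spearman's rho 0.33, p = 0.114). It was -0.19 for Aqp2 with Aqp4 (p = 0.312, adjusted 0.468; rho -0.29, p = 0.156) and -0.01 for Aqp3 with Aqp4 (p = 0.973, adjusted 0.973; rho -0.18, p = 0.398). Avpr2 was left out for its low counts. Without the 2 libraries farthest from the median of the first gene, r was 0.33, 0.06 and -0.07.

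Within the 13 female libraries the channels were related to each other. Aqp2 and Aqp3 rose and fell in the same direction, with r = 0.74 (permutation p = 0.00492, adjusted 0.00738; rho 0.72, adjusted 0.0159). Aqp4 ran opposite to Aqp2, with r = -0.85 (permutation p = 0.00103, adjusted 0.00309; rho -0.86, adjusted 0.00348). Markers of the inner medulla and thin limb ran opposite to Aqp4 in these libraries, with r = -0.91 (permutation p = 0.000410, adjusted 0.0148, and rho -0.91, adjusted 0.0194). With Aqp2 they had r = 0.75, which did not pass after adjustment (permutation p = 0.0144, adjusted 0.259, and rho 0.80, adjusted 0.103). The part of these markers in the relation of Aqp2 and Aqp4 was not tested. Female Q replicate 2, with Aqp2 0.67 above its group mean on the log2 scale, had Aqp4 0.36 below its own, and female Q replicate 3, with Aqp2 0.66 below, had Aqp4 0.32 above. The pair in female R was alike, with replicate 1 at 0.39 for Aqp2 and -0.34 for Aqp4 and replicate 2 at -0.61 and 0.34. Aqp3 and Aqp4 had r = -0.52 (permutation p = 0.0297, adjusted 0.0297; rho -0.55, adjusted 0.0604).

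Each of these relations kept its sign when any 1 female library was left out. Leaving out each in turn gave r of 0.71 to 0.79 for Aqp2 with Aqp3, -0.92 to -0.79 for Aqp2 with Aqp4 and -0.73 to -0.44 for Aqp3 with Aqp4. Without the 2 libraries farthest from the median of the first gene, r was 0.76, -0.69 and -0.81 (permutation p adjusted over 3 pairs 0.0253, 0.0113 and 0.0113). In the 15 male libraries r was -0.36, 0.05 and 0.17 for the same pairs, none past the threshold (permutation p adjusted over 3 pairs 0.571, 0.877 and 0.877; rho -0.15, 0.08 and 0.03). Whether the relations differ between the sexes was not tested.

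**Figure D3:**
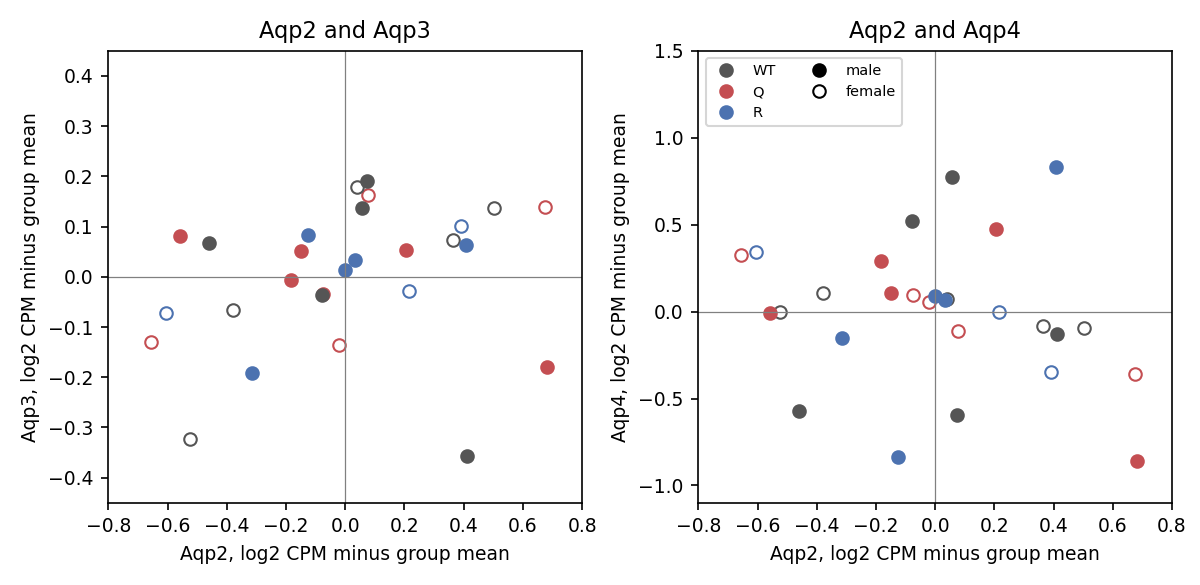
Log2 CPM minus the group mean of Aqp3 (left) and Aqp4 (right) against that of Aqp2, 1 point per library, coloured by genotype, filled for males and open for females. The open points rise from left to right for Aqp3 (r = 0.74) and fall for Aqp4 (r = -0.85), and the filled points do neither (r = -0.36 and 0.05).

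The channels were next set beside 12 genes taken as markers of the principal cell. Aqp4 has also been described in the straight proximal tubule, and which cells its RNA came from was not tested. All 12 had a positive log2 fold change in females against males and 10 passed the edgeR test, against 40.2% of all genes passing in either direction and 21.3% passing as higher in females; the median was 0.38, against 0.04 over all tested genes. Apela, which encodes a peptide ligand of the apelin receptor, rose by 0.97 (SE 0.0711) and Npnt, a matrix protein of the tubule basement membrane, by 0.83 (SE 0.0910). The potassium channel gene Kcnj1 rose by 0.48 (SE 0.0607) and Hsd11b2, which inactivates glucocorticoids and so lets aldosterone act, by 0.37 (SE 0.0559). The 3 subunit genes of the epithelial sodium channel rose by 0.27 (Scnn1a), 0.40 (Scnn1b) and 0.38 (Scnn1g). St6gal1 rose by 0.41, and the collecting duct transcription factors Gata3 and Tfcp2l1 by 0.34 and 0.32. Elf5 (0.27) and Fxyd4 (0.22) did not pass. All adjusted p-values of the 10 lay between 1.54e-12 and 0.0169 by edgeR.

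Aqp2 and Aqp3, at 0.04 and 0.03, lay below all 12 of these genes, and Aqp4, at 1.27, above all 12. The difference was tested as each channel's log2 CPM minus the mean log2 CPM of the 12 genes, female against male, averaged over genotypes, by permutation within genotypes (two-sided, adjusted over the 3 channels, chosen after the values were seen). It was -0.43 for Aqp2 (adjusted p = 0.00431), -0.42 for Aqp3 (adjusted p = 9e-05) and 0.90 for Aqp4 (adjusted p = 9e-05). Male and female means of the difference were 3.15 ± 0.295 and 2.72 ± 0.448 for Aqp2, 1.42 ± 0.221 and 0.98 ± 0.153 for Aqp3, and -0.65 ± 0.594 and 0.23 ± 0.280 for Aqp4 (SD, n = 15 and 13). Without the 2 libraries that stood apart the values were -0.38, -0.43 and 0.81. With nothing subtracted, the log2 CPM of Aqp2 and Aqp3 differed by 0.02 and 0.03 in the same comparison, and that of Aqp4 by 1.35. For Aqp2 and Aqp3 the tested difference is thus largely the rise of the 12 genes given above, with the sign turned. Its p-values show that these channels did not share that rise, and are not evidence of a sex difference in Aqp2 or Aqp3.

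**Figure D4:**
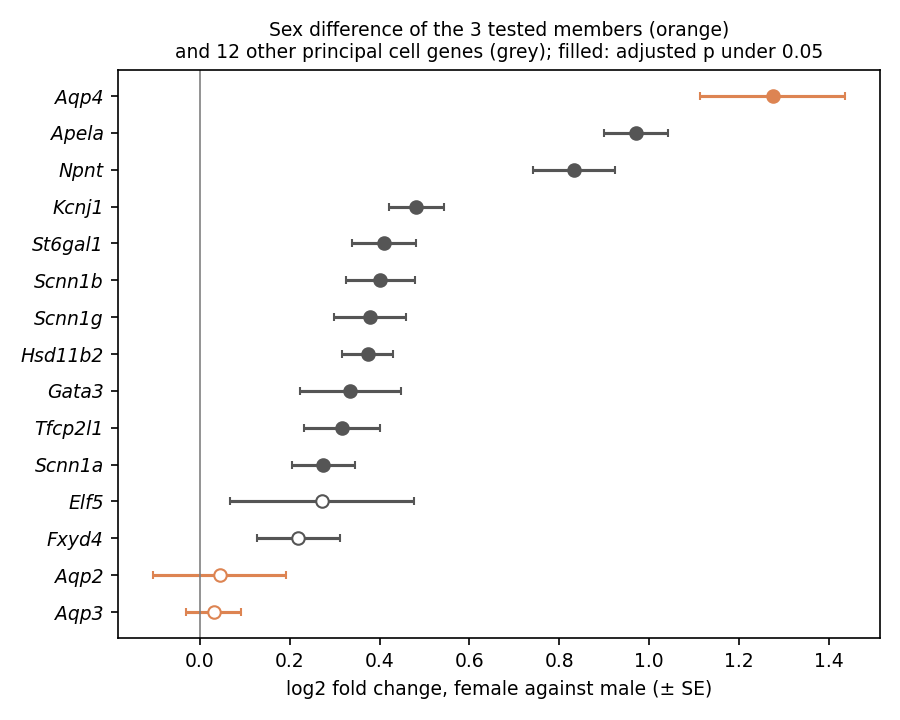
Log2 fold change of females against males, averaged over genotypes, with SE, for the 3 tested channels (orange) and 12 principal cell marker genes (grey), filled where the edgeR adjusted p is under 0.05. Aqp4 is at the top at 1.27, Aqp2 and Aqp3 at the bottom at 0.04 and 0.03, and the 12 genes lie between 0.22 and 0.97.

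Marker levels of several other cell types moved between the sexes as well, and their part in the channels' values was not tested. The counts below compare with 21.3% of all tested genes called higher in females and 18.9% called lower. The urothelial and adipocyte lists were near or below that share. The summed level of the 12 principal cell genes was 867 to 1106 CPM in males and 1158 to 1461 CPM in females. These ranges did not overlap, and neither did those of the proximal tubule and thick ascending limb lists below. How often sums of other genes part by sex in this way was not computed. The 12 intercalated cell markers, the other cell type of the collecting duct, all rose and summed to 543 to 690.4 CPM in males and 677 to 1008 CPM in females. Of 11 proximal tubule markers 4 rose and 6 fell. Their sums were 31282 to 63629 CPM in males (mean 38189) and 17333 to 23791 CPM in females (mean 20345). The highest was in male Q replicate 4, which stood apart. Kap, an androgen-regulated proximal gene, held a large part of these sums, at a mean of 22324 CPM in males and 7524 CPM in females. Kap fell by 1.56 on the log2 scale in females (edgeR adjusted p = 2.34e-09), so the gap between the sums is largely that of Kap. Of 7 thick ascending limb markers 6 rose and 1 fell (3590 to 6189 CPM in males, 6249 to 8555 CPM in females). Of 8 distal convoluted tubule markers 6 rose and 0 fell (1353 to 2066 CPM in males, 1584 to 2693 CPM in females). Of 8 podocyte and endothelial markers 4 rose, of 8 urothelial markers 2 and of 7 tested adipocyte markers 0, with 0 falling in each; sums overlapped between the sexes in all 3 (370 to 482 and 414 to 587 CPM, 23.3 to 63.1 and 28.5 to 68.3 CPM, 32.2 to 219 and 46.4 to 251 CPM in males and females). None of the tested markers had a mean of 0 in either sex.

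Of 17 genes of cyclic AMP signalling and of other receptors that act on it in the kidney, 10 rose in females and 1 fell, with a median log2 fold change of 0.20 against 0.04 over all tested genes. Of all tested genes 21.3% were called higher in females and 18.9% lower. The adenylyl cyclases Adcy6 and Adcy3, which make cyclic AMP, rose by 0.55 (SE 0.0986) and 0.50 (SE 0.151). Pde4b and Pde4d, phosphodiesterases that break it down, rose by 0.54 (SE 0.106) and 0.37 (SE 0.0882). Akap7, an anchor for protein kinase A, rose by 0.57 (SE 0.0798) and its regulatory subunit gene Prkar1a by 0.16 (SE 0.0525). The prostaglandin E2 receptors Ptger4 and Ptger3 rose by 0.61 and 0.44, the arrestin gene Arrb1 by 0.20 and Avpr1a, another vasopressin receptor, by 0.37. Crem, a cyclic AMP responsive transcription factor, fell by 0.17. The catalytic subunit genes Prkaca (-0.14) and Prkacb (0.17), Creb1 (0.17), Arrb2 (0.10), Prkar2a (0.11) and Gnas (0.00, SE 0.196), which encodes the stimulatory G protein, did not pass. Adjusted p-values of those that rose lay between 9.57e-07 and 0.0187 by edgeR. Ptger3 is also a marker of the thick ascending limb.

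Of 20 genes for the transport and turnover of aquaporin-2 vesicles, 4 rose and 5 fell in females, with a median of -0.04. The 9 that passed are a share near that of all tested genes (40.2%). Among them Mal, a membrane protein that binds aquaporin-2, rose by 0.44, the actin linker Ezr by 0.25 and the vesicle SNARE Vamp2 by 0.23. The chaperone Hspa8 fell by 0.55, Ndfip1, an adaptor of Nedd4-type ubiquitin ligases, by 0.27, the ubiquitin ligase Stub1 by 0.24, Vamp3 by 0.21 and the late endosome gene Rab7 by 0.16. Adjusted p-values of these 8 named genes lay between 2.55e-08 and 0.0109 by edgeR.

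Of 11 transcription factors of the collecting duct 7 rose in females (21.3% of all tested genes did), with a median of 0.32 over the list; Gata3, Elf5 and Tfcp2l1 are also in the principal cell list. Grhl2 rose by 0.56, Ehf by 0.48, Tfap2b by 0.41, Gata2 by 0.39 and Nfat5, the tonicity-responsive factor, by 0.30. Of the genes of all 12 lists, 0 passed the edgeR test in any genotype comparison or interaction, where 0% of all genes did. The lists overlap in 4 genes, and they describe these libraries without a test of the list.

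Aqp2 was also set against the mean log2 CPM of each list after centring on groups, as were Aqp3 and Aqp4, giving 36 relations. Aqp2 was related to the 10 genes of the inner medulla and thin limb, with r = 0.66 (permutation p = 0.00137, adjusted over 36 relations 0.0436), though rho, at 0.60, did not pass (adjusted p = 0.112). Without the 2 libraries that stood apart r was 0.76 and rho 0.71 (permutation p adjusted 0.00972 and 0.0166), and without the 2 farthest from the median of Aqp2 r was 0.74 (adjusted 0.00936). It was 0.54 in males and 0.75 in females, neither past the adjusted threshold (permutation p adjusted 0.266 and 0.259). Of the single genes, Cryab, a small heat shock protein of the medulla, had r = 0.71 with Aqp2, Slc6a12, the betaine transporter, 0.68, Akr1b3, aldose reductase, 0.58, and Slc14a2, the collecting duct urea transporter, 0.40. Bdkrb2 had -0.44 and Slc6a6 -0.11. Between the sexes, where 21.3% of all genes were called higher in females, 6 of the 10 rose (among them Slc6a12 by 0.76, Fst by 0.70, Bdkrb2 by 0.52, and Slc5a3 and Slc14a2 by 0.51), and the taurine transporter gene Slc6a6 fell by 0.27, with edgeR adjusted p-values of the named genes between 5.03e-05 and 0.0448. The summed level of the 10 was 616 to 939 CPM in males and 608 to 1048 CPM in females, and 0 genes had a mean of 0.

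With the principal cell list itself Aqp2 had r = 0.44 (permutation p = 0.0185, adjusted over 36 relations 0.167; rho 0.44, adjusted 0.201). Whether this differs from the relation to the inner medulla list was not tested. Within that list r was 0.69 with Gata3, 0.57 with Hsd11b2 and 0.53 with Fxyd4, and -0.31 with Tfcp2l1 and -0.39 with St6gal1. With Aqp3 the principal cell list had r = -0.06 (permutation p = 0.773, adjusted 0.952; rho 0.06, p = 0.778), and none of the 12 relations of Aqp3 passed.

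Aqp4 was related to the 7 thick ascending limb markers, with r = 0.64 (permutation p = 0.00242, adjusted over 36 relations 0.0436; rho 0.48, adjusted 0.201). This relation did not hold without a few libraries. It was 0.51 (adjusted p = 0.267) without the 2 libraries that stood apart and 0.44 (adjusted p = 0.297) without the 2 farthest from the median of Aqp4, by permutation. In males r was 0.77 (permutation p adjusted 0.0209) and in females -0.12 (adjusted 0.876). With the inner medulla and thin limb list, Aqp4 had r = -0.01 over all libraries (permutation p = 0.960, adjusted 0.988; rho -0.04, p = 0.868) and 0.37 in males (adjusted 0.386). In females it was -0.91, as given above (adjusted over 36 relations), the single list relation to pass in females. Leaving out each female library in turn gave -0.95 to -0.88, and r was -0.76 (permutation p = 0.0124, unadjusted) without the 2 farthest from the median of Aqp4. Whether the sexes differ in this relation was not tested. With the principal cell list, Aqp4 had r = 0.15 (permutation p = 0.569, adjusted 0.758; rho 0.02, p = 0.944).

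The genes most like each channel were taken as the 6 with the highest r of group-centred log2 CPM over 28 libraries, among 12820 named genes that averaged 1 CPM or more, and they are given as a description. The libraries share depth and tissue composition, which enter every such r. For Aqp2 they were Epn3 (0.89), an epsin of clathrin-coated vesicles, Nol3 (0.83), Sec14l1 (0.81), Ak1 (0.80), an adenylate kinase, Phlda3 (0.80) and Litaf (0.79). In males and females taken alone, Epn3 had r of 0.88 and 0.93 with Aqp2, and the lowest of the 6 was 0.74. Epn3 was at 32.1 to 49.2 CPM in males and 36.4 to 58.5 CPM in females. Of all candidates, 14.7% had r beyond 0.5 in either direction with Aqp2, against 3.04% with Aqp3 and 6.35% with Aqp4.

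Aqp3 was most like Spata17 (0.74), Slc6a20a (0.74), a proline and imino acid transporter, Fbxo21 (0.68), Gorasp1 (0.68), a Golgi stacking protein, and Cwf19l1 (0.67), among the 6. Aqp2 stood at rank 2831 of the candidates for Aqp3, and Aqp3 at rank 3736 for Aqp2.

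Aqp4 was most like Slc7a12 (0.80), a member of the amino acid transporter family, Ntn4 (0.80), a netrin of basement membranes, Mttp (0.75), the microsomal triglyceride transfer protein, Spsb1 (0.74), E2f6 (0.73) and Ldb2 (0.71). Slc7a12 also differed between the sexes, with 1.57 to 21.7 CPM in males and 113 to 305 CPM in females (log2 fold change 5.10, SE 0.347, edgeR adjusted p = 2.22e-11). Since group means were subtracted first, its likeness to Aqp4 does not use that gap, and it had r of 0.82 within males and 0.66 within females. Ntn4 and Spsb1 were like Aqp4 in males, at 0.90 and 0.85, and at 0.19 and 0.21 in females.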

How the data were processed

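The authors deposited 1 table of unscaled counts, in whole fragments over the exons of each gene. Per the file headers, featureCounts 2.0.1 made it from GRCm39 with gene models of Ensembl release 107. The submitters' processing notes also name Trim Galore 0.6.7, SAMtools 1.6 and DESeq2 1.38.3, with an aligner not given in the sources used here. Tests were run in edgeR 4.0.16 under R 4.3.3. Its filterByExpr kept 17573 genes with 99.91% of counts, which were TMM-scaled and fitted with 1 mean for each of 6 groups (22 residual degrees of freedom), with a robust quasi-likelihood test. A gene was called at a Benjamini-Hochberg adjusted p under 0.05. Both-sexes values average the male and the female contrast. The SE is the absolute log2 fold change over the square root of F, and is approximate. Log2 CPM used a prior count of 2. Correlations used 100000 permutations within groups (numpy, Python). Exonic lengths and overlaps came from GENCODE M21 on GRCm38, matched by identifier. The procedures were tested on simulated data.

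Alternatives were DESeq2 size factors, no filter on low counts, DESeq2 1.42.0 with its Wald test, voom weights (limma 3.58.1), a replicate block, and leaving out libraries. Replicate numbers do not pair the libraries: of 65 same-numbered pairs across groups, 4 had a correlation of deviations over 0.1 (median 0.00549). The genes named are the 4 members, the 6 most like each, and of the lists of the principal cell, its pathways and the inner medulla the 4 most abundant genes and those that passed a test; other list genes named were chosen after their values were seen, and further cell types are given by counts. The 4 members, the 12 lists and the tests were chosen with earlier results of these data known. Of the 132 list entries 1 was not tested. Some list genes and 1 of the genes most like Aqp3 are not reported here.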

Additional observations from a re-analysis of the deposited data

Results flagged for a closer look

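Among 20 groups of libraries (4 or more per group) checked for a value far from the others, 2 held one, where chance gives about 1 in 20. Aqp3 in male R replicate 4, at 99.1 CPM, lay below the other 4 libraries of its group, which held 114 to 119.8 CPM. Avpr2 in male R replicate 2, at 0.283 CPM, rests on 6 counts, against 0 or 1 in the other 4.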

How the results depend on the processing

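Under the alternatives run, 1575 values were computed for 45 fold changes of Aqp2, Aqp3 and Aqp4; 63 values, in 16 of the fold changes, changed sign, and the largest of those was 0.19 in size at the outset. No value newly passed the threshold, and 1 no longer did (Aqp4 between the sexes in R, without female R replicate 2, so that 0 to 1 channels passed there). Without the 2 libraries that stood apart, Aqp3 in male Q against R became 0.0053 and Aqp2 between the sexes in Q 0.070; without the low-Xist library, Aqp3 in R against WT over both sexes became 0.016; with no filter, Aqp3 between the sexes in Q became 0.010. With voom weights, Aqp3 became 0.0052 (male Q against R) and 0.0069 (both sexes, R against WT), Aqp4 -0.036 and -0.089 (female and both sexes, R against WT) and Aqp2 0.11 (sexes in R). With a replicate block, Aqp4 in R against WT over both sexes was -0.014 and Aqp2 between the sexes in R 0.085, and the block changed no call.

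Leaving out each library in turn gave Aqp2 -0.26 to 0.07 (male Q against WT), -0.13 to 0.10 (male R against WT), -0.25 to 0.083 (male Q against R), -0.43 to 0.0084 (female Q against R), -0.031 to 0.13 (sexes, averaged), -0.36 to 0.050 (in Q) and -0.20 to 0.24 (in R). It gave Aqp3 -0.079 to 0.0056 (male Q against R), -0.048 to 0.018 (R against WT, both sexes), -0.12 to 0.027 and -0.047 to 0.026 (sexes in WT and Q) and -0.033 to 0.11 (sex by Q). Aqp4 ran -0.30 to 0.20, -0.14 to 0.21 and -0.12 to 0.12 (R against WT in males, females and both) and -0.14 to 0.35 (sex by R), and r of Aqp3 with Aqp4 -0.15 to 0.089.

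Over all libraries r of Aqp3 with Aqp4 was 0.12 when not centred on groups, and r of Aqp2 with Aqp4 was 0.059 without the 2 libraries farthest from the median. In females alone r was 0.74, -0.85 and -0.52 for Aqp2 with Aqp3, Aqp2 with Aqp4 and Aqp3 with Aqp4, and 0.76, -0.69 and -0.81 without their 2 farthest libraries (chosen after seeing the data, as were the sex comparisons within a genotype and the list correlations by sex). In males alone it was -0.36, 0.045 and 0.17, and -0.16, 0.47 and 0.16 without theirs. Aqp2 with the inner medulla list had 0.54 in males and 0.75 in females, and with the principal cell list 0.55 without the 2 farthest libraries, where it passed. Aqp4 with the thick ascending limb list had -0.12 in females, 0.51 without the 2 libraries that stood apart and 0.44 without the 2 farthest. Aqp4 with the inner medulla list had 0.37 in males and -0.91 in females. The cause of these changes was not tested. The fewest counts of a channel in a library were 181, and Avpr2 had 7 at most.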
